A study of Tribolium castaneum with 2 samples.

Results

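The extreme-depth positions are the cytosines at which whole genome bisulfite sequencing (WGBS) of *Tribolium castaneum* eggs gave more than 1000 reads, summed over both replicates. This rule took 3711 of the 19983652 listed positions (0.0186%). They lay on 303 of the 2313 sequences with a listed position. The depth of reads chose them, so depth is given below as a description without a test. Spacing, shared layout and non-conversion did not enter the rule.

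The DNA came from 2 egg pools of the Georgia 2 (GA-2) line, which were untreated and between 24 h and 48 h old. They are replicates 1 and 2 of 1 condition without a comparison group. Bisulfite turns unmethylated cytosines into uracil, so that a read still showing C marks a methylated base, a failed conversion or a sequencing error. Summed over positions, replicate 1 had 42534665 reads at 14503020 positions and replicate 2 had 55723118 reads at 16480367 positions. A read is counted at each listed position it covers, so these sums and the shares below are not numbers of sequenced reads. The deposited tables have no column for strand or sequence context. The study describes its sites as containing a CpG, and whether each listed position is one was not tested. CpGs with merged strands would give no adjacent positions, and with separate strands each would have a neighbour where both strands were read. However, 304 pairs of extreme-depth positions were directly adjacent, while position 93 of LGUn_WGA1031_2 (1215 and 1427 reads) had no listed neighbour. The rates below are therefore those of listed cytosines and are not read as CpG rates. With 2 replicates of 1 condition, all tests below compare reads within or between these libraries, and intervals are 95% intervals that cover counting error only.

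Satellite DNA consists of a short unit that is repeated head to tail many times over, mostly in the heterochromatin around centromeres. The major satellite of this beetle, TCAST, occupies the pericentromeric heterochromatin of all chromosomes. Genome assemblies hold such arrays as few, often unplaced pieces, while the reads come from every copy. According to the study, earlier work on this species reported satellite DNA that stays methylated through life. Other work found no defined CpG methylation in the genome of adult beetles. The conversion of satellite DNA is therefore of interest here. The bases at the positions were not analysed here, and no position could be assigned to TCAST or to another named repeat. The positions are therefore called by their depth.

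The extreme-depth positions held 7841877 of the 98257783 reads summed over positions, which is 7.98%. Their share was 8.33% of the reads in replicate 1 and 7.71% in replicate 2. On the unplaced sequences they took 23.4% of all reads. Their summed depth reached 21516 reads, and its median was 1561. In replicate 1 the lowest, median and highest depth were 418, 706 and 9835 reads, and in replicate 2 they were 494, 856 and 11681 reads. The median position on a linkage group, among those listed in both replicates, had 5 reads. The extreme-depth positions were thus at 200.2 to 4303 times this level, and at 312 times in the median. More than 3000 reads were found at 487 positions and more than 10000 reads at 24.

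The deepest was position 562 of LGUn_WGA1943_2, with 9835 reads in replicate 1 and 11681 in replicate 2. The next were positions 1075 (8658 and 10037 reads) and 1077 (8650 and 10037 reads) of LGUn_WGA1031_2. Position 8080 of LGUn_WGA450_2 had 7737 and 9448 reads, and position 660 of LGUn_WGA1031_2 had 6977 and 8423 reads. All of these sequences are unplaced. The order of depth among the 5 was the same in both replicates, apart from the tie of positions 1075 and 1077 in replicate 2. At the threshold, position 2320 of LGUn_WGA1523_2, position 242 of LGUn_WGA1988_2 and position 412 of LGUn_WGA2187_2 entered with 1 read more than the threshold each. Position 907 of LGUn_WGA1831_2, position 837 of LGUn_WGA2083_2 and position 1946 of LGUn_WGA2156_2 stayed out with 1000 reads each. There was no gap in depth at the threshold.

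Of the 303 sequences, 284 were unplaced and 19 belonged to linkage groups. The unplaced ones are 284 of the 2137 unplaced sequences with a listed position. They were short, with the last listed position at a median of 1489 bp and a range from 542 to 265328 bp. A sequence held between 1 and 91 extreme-depth positions, with a median of 9. At least 10 were found on 142 sequences, which together held 3027 of the positions, while 31 sequences had 1 each. The reads were spread over many sequences, since the 10 with the most reads held 23.7% of the reads at extreme-depth positions and the 50 with the most held 56.3%.

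LGUn_WGA862_2 had the most extreme-depth positions, 91 of 574 listed positions between 64 bp and 2643 bp. LGUn_WGA1031_2 had 79 of 347 listed positions and the most reads, 343195, which is 4.38% of all reads at extreme-depth positions. LGUn_WGA669_2 had 61, LGUn_WGA500_2 had 55 and LGUn_WGA450_2 had 52 extreme-depth positions. By reads, LGUn_WGA862_2 (279797), LGUn_WGA450_2 (222275), LGUn_WGA669_2 (177052) and LGUn_WGA1943_2 (163792) followed LGUn_WGA1031_2. The last of these reached its reads with 25 positions. These sequences were of different kinds. The last listed positions of LGUn_WGA669_2 and LGUn_WGA450_2 lie at 29728 bp and 25031 bp. About 1% of their listed positions had extreme depth (1.08% and 1.01%). In LGUn_WGA1031_2 it was 22.8%, the highest share of an unplaced sequence.

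The linkage groups held 120 extreme-depth positions, which is 3.23% of them, with depths from 1002 to 6674 reads. They lay on 9 of the 10 linkage groups, with none on LG6. On 17 of the 19 sequences they lay within a stretch of at most 1151 bp. Among these, LG2_WGA14_2, LG5_WGA80_2, LG5_WGA81_2 and LG9_WGA153_2 had only 1 each. The exceptions were LG8_WGA128_2 and LG10_WGA164_2. Of the 5 extreme-depth positions of LG10_WGA164_2, 1 lay at 1009370 bp and the others between 1165952 bp and 1166008 bp. LG3_WGA48_2 had 16 between 678246 bp and 678531 bp, LG8_WGA126_2 had 14 between 896160 bp and 896298 bp, and LG3_WGA51_2 had 12 between 836227 bp and 836522 bp. LG7_WGA113_2 had 12 between 369219 bp and 370370 bp. LG8_WGA128_2, with 25 between 71408 bp and 91116 bp, had the most. Their total of 56916 reads was 4.71% of all reads of that sequence, whose last listed position is at 2659472 bp. Which genes lie there was not analysed here. All coordinates are those of assembly version 3.0.

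Positions of extreme depth often stood directly beside shallow ones. Directly adjacent listed positions formed 1406 pairs with at least 1 extreme-depth member. In 304 of these (21.6%) both were of extreme depth, while in 431 (30.7%) the shallower position had at most 10 reads. Across the 1406 pairs the deeper position had a median of 13.8 times the reads of the shallower. Between neighbours 2 to 10 bp apart the median was 25.1 times, over 4547 pairs, and the shallower had at most 10 reads in 33.4%. Such contrasts were not particular to the extreme depth. Where the deeper of directly adjacent positions had over 100 and up to 1000 reads on an unplaced sequence, the shallower had at most 10 reads in 31.7% of 14483 pairs.

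The contrast can be followed along LGUn_WGA1031_2. Position 660, with 6977 and 8423 reads, lies beside a listed position with 1 read in replicate 1 and 2 in replicate 2. The listed positions 10 bp before it and 14 bp after it had 2 and 2 reads, and 2 and 0 reads. Of the 347 listed positions of this sequence, 90 (25.9%) had at most 10 reads and 79 (22.8%) had extreme depth, and the latter held 89.2% of its reads. Deep and shallow positions alternated over much of the sequence, but none between 227 bp and 369 bp or after 1438 bp had extreme depth.

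**Figure D1:**
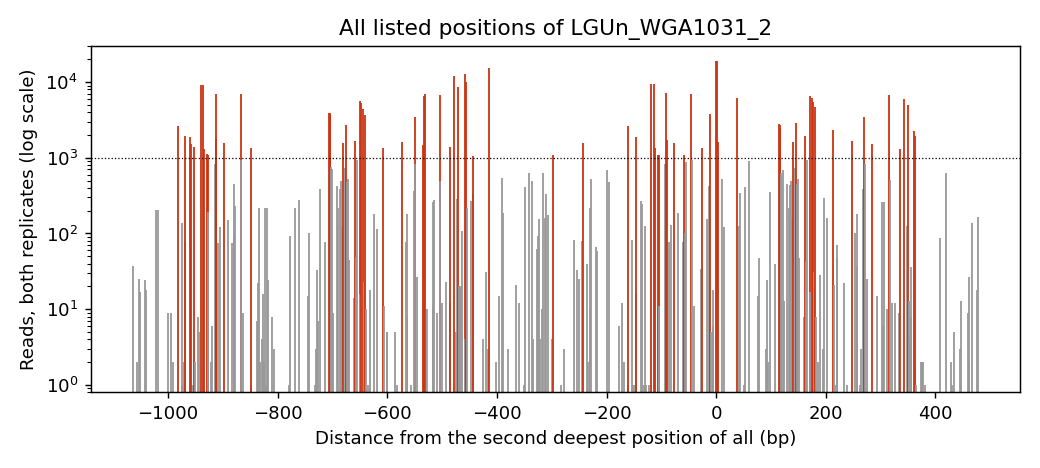
Reads summed over both replicates (log scale) at each of the 347 listed positions of LGUn_WGA1031_2, against the distance in bp from position 1075, its deepest. Red lines are the 79 extreme-depth positions, grey lines all others, and the dotted line marks 1000 reads. Positions above the dotted line stand between positions of a few reads along much of the sequence.

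Extreme-depth positions of a sequence lay close together. The 3408 gaps between consecutive ones had a median of 14 bp, and 43.6% of them were at most 10 bp and 87.1% at most 100 bp. Gaps of 1 bp numbered 304 and gaps over 1000 bp numbered 40. On the unplaced sequences with at least 10 such positions, the distance from the first to the last had a median of 947 bp.

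To look for a repeating period, all pairs of extreme-depth positions of a sequence were counted by their distance, and each count was divided by the median count of the distances within 25 bp. The highest ratio between 50 bp and 1000 bp was found at 377 bp. There were 97 pairs at this distance, 3.23 times the local median. They came from 45 of the 303 sequences. The next were 116 bp with 165 pairs on 89 sequences (2.70 times) and 331 bp with 63 pairs on 37 sequences (2.52 times). At 375 bp the ratio was 1.83 and at 376 bp it was 1.40. At 188 bp and 189 bp, on either side of the middle of the period, it was 0.860 and 1.21. A period measured in this way can be a multiple of a shorter one.

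Longer distances were less clear. At 1129 bp, which is 2 bp short of 3 times the period, there were 28 pairs on 9 sequences (2.33 times the local median), and at 752 bp there were 30 pairs on 11 sequences (1.67 times). At the exact multiples of 754 bp and 1131 bp the ratios were 1.11 and 1.17. Distances that are not close to a multiple had ratios as high as these, with 2.56 at 1319 bp and 2.30 at 1203 bp, and with 1.92 at 893 bp, 1.81 at 822 bp and 1.80 at 739 bp. The near-multiples thus did not stand out, and they were chosen for their closeness to the period. The pairs were concentrated on some sequences. On LGUn_WGA1178_2, each extreme-depth position from 1266 bp to 1439 bp had another 1129 bp further on. The same held at 1203 bp for those from 1068 bp to 1241 bp of LGUn_WGA1306_2. At 822 bp it held for those from 135 bp to 227 bp of LGUn_WGA1031_2. Blocks of positions thus recurred within a sequence, at distances that differed between sequences. LGUn_WGA500_2 had 9 pairs at 377 bp, 14 at 752 bp and 4 at 1129 bp. LGUn_WGA408_2 had 9 pairs at 377 bp among its 23 extreme-depth positions. Pairs at 377 bp were thus found on a minority of the sequences. The extreme-depth positions of 160 sequences span this distance and could hold one.

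Other listed positions of the same unplaced sequences had a ratio of 1.06 at 377 bp, and their own highest ratio was 1.08 at 120 bp. On the 1853 unplaced sequences without an extreme-depth position the ratio at 377 bp was 0.997, and the highest was 1.05 at 180 bp. These sets are far larger, so their ratios scatter less, and no test of the difference was made. The period also moved with the choice of positions. With more than 2000 reads as the rule, the period was 116 bp, at 2.92 times the local median. The ratio at 377 bp was then 2.80 with 14 pairs, which is below the minimum of 20 pairs that the measure requires. When every sequence was counted once it was 447 bp.

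**Figure D2:**
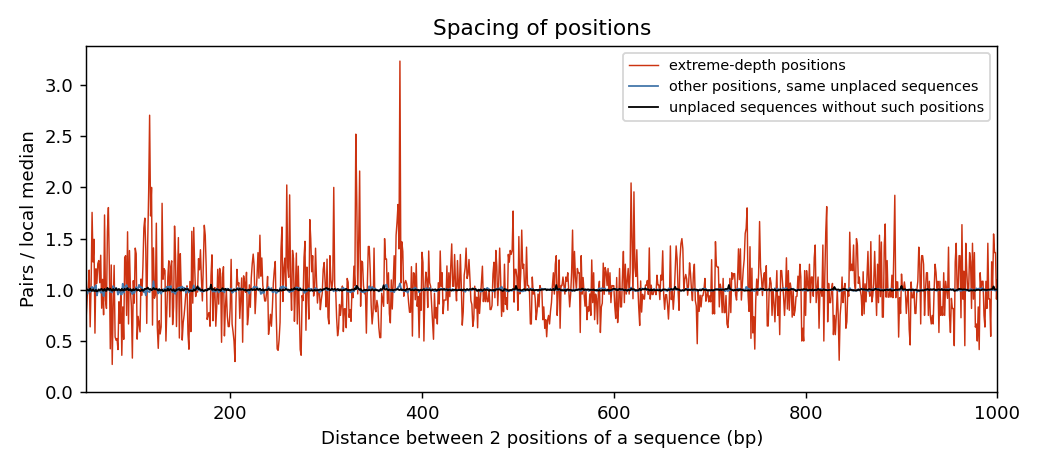
Number of pairs of positions on the same sequence at each distance (50 to 1000 bp), divided by the median over the distances within 25 bp. The red line of the extreme-depth positions peaks at 377 bp with 3.23 times the local median, while the lines of the other positions of the same unplaced sequences (blue) and of unplaced sequences without such positions (black) stay close to 1.

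Different sequences carried the extreme-depth positions in the same layout. Among the 142 sequences with at least 10 of them, each pair of sequences was shifted against each other, in the same and in the opposite direction, until the largest number of extreme-depth positions coincided. A layout was called shared where at least 8 positions and 60% of the smaller set coincided, a limit chosen after the values were seen. Of the 10011 pairs, 211 (2.11%) met it, and 102 of the 142 sequences were in at least 1 such pair. In these pairs a median of 72.7% of the smaller set coincided. In the direction that was not chosen, the best shift of the same pairs gave a median of 33.3%, and over all 10011 pairs the median was 27.3%. The best shift is chosen among many, so these values are a description.

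The 211 pairs were divided between 96 in the same and 115 in the opposite direction. All extreme-depth positions of the smaller set coincided in 9 pairs. Linked through such pairs, 70 sequences with 1659 extreme-depth positions formed the largest connected group, and the next had 15 sequences. The largest number of coinciding positions was 22, between the 28 of LGUn_WGA2191_2 and the 43 of LGUn_WGA1169_2 in the opposite direction.

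LGUn_WGA907_2 shared its layout with the most sequences, 19. Its 11 extreme-depth positions lay 0, 31, 146, 148, 160, 167, 193, 220, 239, 262 and 277 bp from the first of them. All 11 of these distances recurred in LGUn_WGA1178_2, read in the opposite direction, which had 16 of its 48 extreme-depth positions within this span. In LGUn_WGA450_2, read in the same direction, 10 of the 20 within the span fell on these distances, and in LGUn_WGA1943_2 it was 9 of 22. In LGUn_WGA1115_2, LGUn_WGA1173_2, LGUn_WGA1306_2 and LGUn_WGA702_2, 9 of the 10 extreme-depth positions within this span fell on these distances.

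Layouts were also shared by 3 of the sequences on linkage groups. Of the 14 extreme-depth positions of LG8_WGA126_2, 13 coincided with those of the unplaced LGUn_WGA1940_2, against 5 in the opposite direction, and 11 coincided with those of LGUn_WGA1031_2. LG3_WGA48_2 shared 10 of its 16 with LGUn_WGA1169_2, against 5 in the direction not chosen. LG3_WGA51_2 shared 9 of its 12 with LGUn_WGA669_2, against 4. LG8_WGA128_2 with 25 extreme-depth positions and LG7_WGA113_2 with 12 were compared as well, and neither met the limit with any sequence.

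The listed positions that are not of extreme depth had no part in choosing the shifts. At the shift of the extreme-depth positions, 36.2% of those in the overlap fell on another listed position of the partner, while at the 92 shifts from 5 to 50 bp to either side 17.6% did. The share was higher at the chosen shift in all 211 pairs. The order of depth was shared less than the layout. Across the coinciding positions of a pair, Spearman's rho of depth had a median of 0.483.

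**Figure D3:**
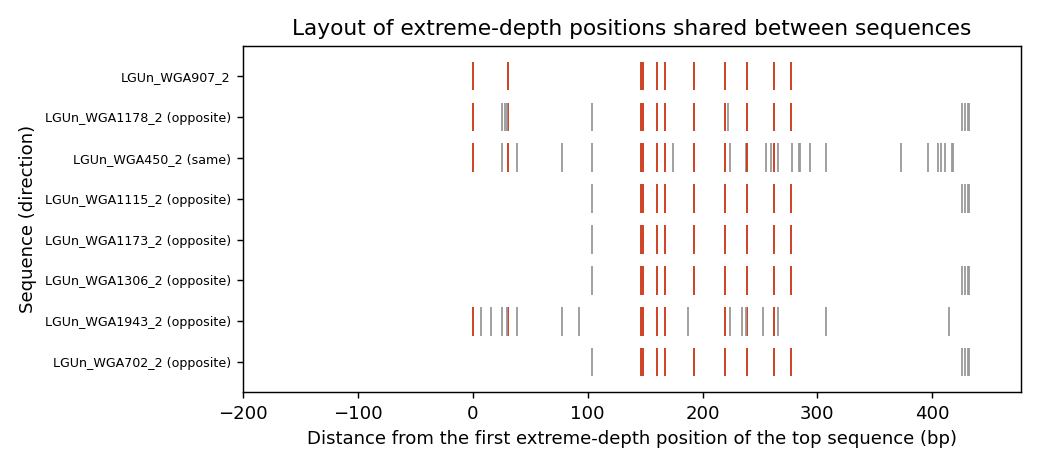
Extreme-depth positions of LGUn_WGA907_2 (top) and of the 7 sequences that share most of its layout, each shifted and, where marked opposite, reversed. The x axis gives the distance in bp from the first extreme-depth position of LGUn_WGA907_2. Red lines fall on one of its 11 positions and grey lines do not. Between 9 and 11 lines of each of the 7 sequences are red.

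The order of depth at these positions was nearly the same in both replicates, while replicate 2 was deeper at almost all of them. Across the 3711 positions, Pearson's r of log2 depth was 0.992 and Spearman's rho of depth was 0.979. The positions share libraries and fragments, and their summed depth chose them, so no p-value is given. All of them were listed in both replicates. The ratio of replicate 2 to replicate 1 had a median of 1.21 and ran from 0.906 to 1.54, and 3244 positions (87.4%) were within 10% of the median. The SD of its log2 value was 0.094, and counting error alone gives 0.073 at the median position. The lowest ratios were at position 2965 of LGUn_WGA1732_2 (955 and 865 reads) and position 343 of LGUn_WGA732_2 (549 and 504 reads). The highest were at position 1884 of LGUn_WGA862_2 (421 and 648 reads) and position 1790 of LGUn_WGA1134_2 (463 and 703 reads). Replicate 2 was deeper at 3695 positions and replicate 1 at 15.

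Replicate 2 was larger by a factor of 1.31 over all reads, and by 1.32 over the reads at all other positions. At the extreme-depth positions this factor was 1.21, and 297 of the 303 sequences had a ratio below 1.32. The lower ratio was not particular to them. It was 1.23 at positions with over 30 to 100 reads, 1.204 at over 100 to 300 and 1.21 at over 300 to 1000, whereas it was 1.35 at positions with up to 10 reads. Positions chosen on replicate 1 alone, at the same share of the threshold, held 7.93% of the reads of replicate 2, which this choice did not use. Positions chosen on replicate 2 alone held 8.13% of the reads of replicate 1. Of the 3954 positions chosen on replicate 1, 93.5% were extreme-depth positions, and of the 3531 chosen on replicate 2, 99.7% were.

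**Figure D4:**
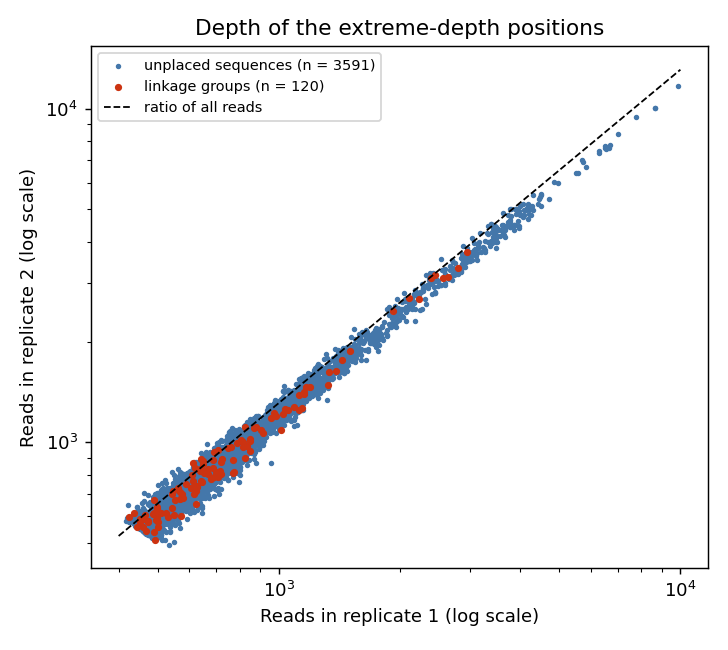
Reads in replicate 1 (x axis) and replicate 2 (y axis), both on log scales, for the 3591 extreme-depth positions on unplaced sequences (blue) and the 120 on linkage groups (red). The dashed line is the ratio of all reads, 1.31. The points follow one line over the whole range, and most lie below the dashed line, with a median ratio of 1.21.

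Nearly all cytosines at the extreme-depth positions were converted. The unconverted shares here are lower than those left by the conversion rates that the study gives for mapped reads. The reason for this difference was not tested. In replicate 1, 1499 of 3544067 reads were unconverted, which is 0.0423% (Wilson interval 0.0402% to 0.0445%). In replicate 2, 2796 of 4297810 reads were unconverted, which is 0.0651% (0.0627% to 0.0675%). The mean was 0.0537% ± 0.0161 (SD, n = 2). At all other positions the rates were 0.0381% (0.0374% to 0.0387%) and 0.0562% (0.0556% to 0.0569%), with a mean of 0.0471% ± 0.0128 (SD, n = 2). With each replicate taken as a pair, the extreme-depth rate was higher by 0.00424 percentage points in replicate 1 and by 0.00884 in replicate 2, a mean of 0.00654 ± 0.00325 (SD, n = 2). It was higher in both pairs, but an exact sign permutation test (two-sided) of 2 pairs gives p = 0.5, the smallest it can give. The paired difference was added after the data were seen.

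Within replicate 1 the rate at extreme-depth positions was 1.11 times that of all other positions (interval 1.05 to 1.17, two-sided Fisher's exact test of the reads, p = 0.000117). In replicate 2 it was 1.16 times (interval 1.11 to 1.203, Fisher's exact test, p = 5.02e-13). By the same exact test, the ratios against other positions on unplaced sequences were 1.11 (p = 0.00061) and 1.13 (p = 1.7e-08), and against the other positions of the same 303 sequences they were 1.13 (p = 0.000111) and 1.13 (p = 1.37e-07). The reads at neighbouring positions come from the same molecules, so these p-values are too small. Among the 142 sequences with at least 10 extreme-depth positions, the rate exceeded that of all other positions in 76 in replicate 1 and in 91 in replicate 2.

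The rates differed somewhat by depth. At positions with up to 10 reads they were 0.0373% (0.0366% to 0.038%) and 0.0549% (0.0542% to 0.0557%). At positions with over 300 to 1000 reads they were 0.0408% and 0.0585%. The extreme-depth rate was 1.04 times this in replicate 1 (interval 0.96 to 1.12, Fisher's exact test, p = 0.373) and 1.11 times in replicate 2 (1.05 to 1.18, p = 0.000239). This comparison was added after the data were seen. Among the extreme-depth positions, those with up to 3000 reads had 0.043% and 0.0647%, those with over 3000 to 10000 reads had 0.0423% and 0.0674%, and the 24 with more had 0.0316% and 0.0539%. The intervals of these classes of extreme-depth positions overlap within each replicate. On the linkage groups, 59 of 102548 and 75 of 124972 reads were unconverted at extreme-depth positions, which is 0.0575% and 0.06%. This was 1.51 times the rate of other linkage group positions in replicate 1 (interval 1.17 to 1.95, Fisher's exact test, p = 0.00286) and 1.08 times in replicate 2 (0.858 to 1.35, p = 0.509).

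**Figure D5:**
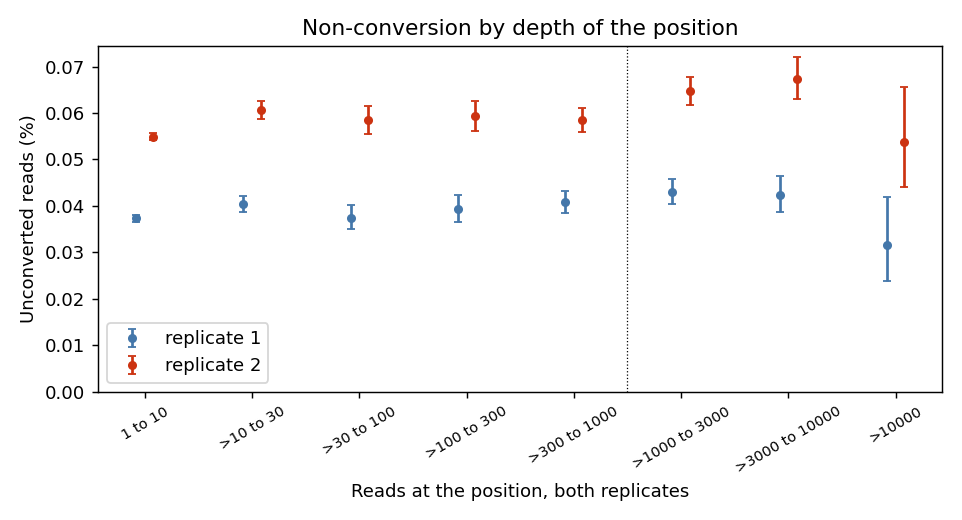
Unconverted reads in percent of all reads (y axis) at positions grouped by their reads summed over both replicates (x axis), for replicate 1 (blue) and replicate 2 (red). Points are pooled rates and bars are 95% Wilson intervals. Classes to the right of the dotted line are the extreme-depth positions. Replicate 2 lies above replicate 1 in every class, and all rates are between 0.0316% and 0.0674%.

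The replicates differed more from each other than the extreme-depth positions did from the rest. At extreme-depth positions replicate 2 had 1.54 times the rate of replicate 1 (interval 1.44 to 1.64, two-sided Fisher's exact test of the reads, p = 1.07e-42), which compares libraries and not conditions. At all other positions this ratio was 1.48. The ratio of the odds ratios was 1.04 (0.975 to 1.11, interaction term of a logistic model of the reads), an interval that includes 1, so that the size of the difference between replicates was not shown to depend on extreme depth.

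The unconverted reads were scattered over the positions. No unconverted read was found at 2652 extreme-depth positions (71.5%) in replicate 1 and at 2066 (55.7%) in replicate 2, and at 1636 in neither replicate. Exactly 1 was found at 767 and 1023 positions, and at least 5 at 9 and 70. The median level of a position over both replicates was 0.0404%. Both replicates had an unconverted read at 629 positions. These make up 60.6% of the 1038 such positions of the whole series, a share that depends on depth. Across the 3711 positions Spearman's rho of the level between replicates was 0.169, and across the 142 sequences with at least 10 such positions it was 0.172. Per sequence the rate ran from 0% to 0.143% in replicate 1 and from 0.00943% to 0.247% in replicate 2.

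The sequences with the most extreme-depth positions were within this range. In LGUn_WGA862_2, 68 of 125960 and 122 of 153837 reads were unconverted, or 0.054% and 0.0793%. In LGUn_WGA1031_2 it was 0.0394% and 0.059%, and in LGUn_WGA1943_2 it was 0.0294% and 0.0619%. At the deepest position of all, position 562 of LGUn_WGA1943_2, 1 of 9835 and 7 of 11681 reads were unconverted.

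Each position with at least 5 reads was tested for an excess of unconverted reads over the rate of its replicate by an exact binomial test (one-sided), with p-values adjusted after Benjamini-Hochberg over all tested positions. All 3711 extreme-depth positions could be tested. In replicate 1, 0.00112% of the 1424112 tested positions passed at an adjusted p-value of 0.05, and in replicate 2 0.000338% of 2659511. Among the extreme-depth positions 1 passed in each replicate, and it was the same one. In both replicates 6 of 741824 positions passed (0.000809%), and 1 of the 3711 is 0.0269%. Deep positions give the test more power, so the shares are not comparable. At an unadjusted p-value of 0.05, 144 extreme-depth positions passed in replicate 1 (3.88%, against 0.335% of all tested positions) and 178 in replicate 2 (4.80%, against 0.45%). An exact test of whole read counts passes fewer than 5% of positions without any excess. How many fewer was not computed, so these shares are not read against 5%. In both replicates 20 extreme-depth positions passed (0.539%), against 107 (0.0144%) in the whole series.

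This position was 1008 of LGUn_WGA2135_2. Replicate 1 had 11 unconverted of 481 reads (2.29%) and replicate 2 had 12 of 611, which together is 2.11%. The exact binomial test gave adjusted p-values of 4.61e-11 and 2.27e-09. No other extreme-depth position had 1% or more. The 17 other listed positions within 50 bp had 0 unconverted of 1993 reads in replicate 1 and 5 of 2341 in replicate 2. In replicate 2 this is 0.214%, above the rate of 0.0651% of all extreme-depth positions. Of the 5 reads, 4 were at position 1052, where 532 reads were counted (0.752%), and none of its 478 reads in replicate 1 was unconverted. Position 1052 did not pass the test (exact binomial test, adjusted p = 1 in both replicates). The directly adjacent position 1007 had 0 of 36 and 1 of 47 reads unconverted. Position 1008 lies near the end of a short sequence, with the last listed position at 1072 bp.

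The extreme-depth positions with the next highest numbers of unconverted reads did not pass the test. Position 297 of LGUn_WGA1889_2 had 9 of 3464 and 6 of 4448 reads unconverted, or 0.19% together. On LGUn_WGA862_2, position 803 had 8 of 3980 and 7 of 5117, and position 799 had 8 of 4050 and 6 of 5196. Position 8143 of LGUn_WGA450_2 had 4 of 5502 and 10 of 6432. The adjusted p-value (exact binomial test) was 0.516 for position 297 of LGUn_WGA1889_2 in replicate 1 and 1 in all other cases.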

How the data were processed

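The data are WGBS libraries from 2 egg samples of the same condition. The authors trimmed the paired-end reads with Trimmomatic 0.32, used BSMAP 2.5 to map them to the beetle genome (assembly version 3.0), discarded duplicates with Picard and took read numbers per cytosine from the script of BSMAP. The deposited values are raw counts of reads per position and replicate, in 4 columns without a header, and were not normalized. The small count was taken as unconverted and the other as converted reads, and depth is their sum. How BSMAP placed reads that fit more than 1 site can affect depth, and its part here was not tested. Duplicate removal caps the reads that can start at one place.

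Positions were selected where the depth of both replicates summed to more than 1000 reads. These positions and the tests were chosen with earlier results of these data known. Rates were pooled over reads, with 95% Wilson intervals. Fisher's exact test compared reads within a replicate, an exact sign permutation test took each replicate as a pair, a logistic interaction term compared the replicates, and an exact binomial test with Benjamini-Hochberg adjustment was applied to all positions with at least 5 reads. These scripts were tested on simulated data. In a simulated case the spacing measure returned a multiple of the true period. Comparing layouts was decided after the data were seen. Named in the text are the 5 sequences with the most extreme-depth positions and the 5 with the most reads, the 5 deepest positions, those that passed the binomial test, the 5 with the most unconverted reads, the lowest and highest replicate ratios, the 5 leading linkage group sequences and the positions next to the threshold. Tests were run with scipy 1.17.1 and numpy 2.4.6 under Python 3.11.15, tables were handled with pandas 2.3.3, and figures were drawn with matplotlib 3.10.9. Sequences named for their spacing or layout were chosen after their values were seen. No gene table of this assembly was used.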

Additional observations from a re-analysis of the deposited data

How the results depend on the processing

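Of 59 alternative values, 48 kept their direction and side of the threshold or stayed close to the reported value, and none reversed. With more than 500 reads as the rule there were 9471 positions with 12.03% of the reads, and with more than 2000 reads there were 1164 with 4.40%. Requiring more than 500 reads in each replicate gave 7.48% of the reads. Leaving out each replicate gave 3531 to 3954 positions with 7.93% to 8.13% of the reads of the other replicate. The period was 116 bp with more than 2000 reads, where the ratio at 377 bp was 2.80 but rested on 14 pairs, under the minimum of 20. It was 447 bp when every sequence counted once and 120 bp for all listed positions of the same sequences, and it remained 377 bp in the other 3 alternatives. The ratio of the non-conversion rates to other positions lost its significance in replicate 1 against positions with over 300 to 1000 reads (1.04, p = 0.373, Fisher's exact test of the reads), a comparison chosen after seeing the data. The cause was not tested. Averaging the ratios of single positions gave 1.11 in replicate 2. Leaving out each replicate gave ratios of 1.11 to 1.16. Without the position that passed in both replicates, also chosen after seeing the data, the ratios were 1.10 and 1.15. The exact binomial test against a rate of 1% passed 0 extreme-depth positions in both replicates, where 1 passed at the overall rate and 20 had an unadjusted p-value under 0.05. The interaction term ranged from 1.02 to 1.06 in its alternatives, and none of them had a p-value under 0.05. The comparison of extreme-depth with other positions is paired by replicate, and its mean difference was 0.00591 percentage points against other positions on unplaced sequences and 0.00621 against those of the same sequences, each positive in both replicates. Depth does not limit the pooled rates at these positions, but the 2 replicates limit every comparison between libraries.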
